A study of Gallus gallus with 23 samples.

Results

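The genes described here were taken to encode parts of the ubiquitin and proteasome system of chicken liver. They were chosen by gene symbol: subunits and helpers of the proteasome (symbols beginning PSMA to PSMG), ubiquitin-conjugating enzymes (UBE2), ubiquitin-specific proteases (USP), and the RNF, TRIM, F-box (FBX) and cullin (CUL) families of ubiquitin ligases. The rule found 160 genes on 267 of 19200 spots, among 6428 named genes on the array. USP6NL matched the rule by its symbol and is counted in the totals, but it was not placed among the deubiquitinases or any other family. A gene was tested if each group held 3 values or more for it, which left 122 of the 160 genes, among 9244 features tested in all (named genes, and unnamed spots 1 by 1).

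Ubiquitin is a small protein that is attached to other proteins as a tag. An activating enzyme passes it to a conjugating enzyme (E2), and a ligase (E3) chooses the protein that receives it, while deubiquitinases such as the USP proteases take it off again. Chains of ubiquitin send a protein to the proteasome, a barrel-shaped core (20S) capped by a regulatory particle (19S) that binds, unfolds and feeds in the substrate. In liver the system clears damaged and short-lived proteins, and in mammals glucocorticoids are known to raise some of its ligases in skeletal muscle during wasting.

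Liver was taken from 23 male broiler chickens (Ross x Cobb) that wore a hormone pump under the skin for 6 days, beginning at 29 days of age. The vehicle control group (VC, 6 birds) received DMSO and propylene glycol, and 6 birds received corticosterone (CS, the main glucocorticoid of birds) at 600 micrograms for each kg of body weight daily. A further 6 birds received L-triiodothyronine (T3, the active thyroid hormone) at 192 micrograms for each kg daily, and 5 birds received both hormones at these doses (CS+T3). RNA of each bird (20 micrograms) was hybridised on its own 2-colour cDNA array against a pool of liver RNA from 6 control birds, so each value is a log2 ratio of a bird to that pool and carries no absolute level.

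Arrays held values for 8925 to 13721 of the 19200 spots. On 6 arrays (VC replicate 4, CS replicate 3, T3 replicates 1 and 3, CS+T3 replicates 1 and 2) values sat against the wrong spots over all or part of the array, and they were moved back, which left 6348 to 10816 values there. Across spots, 4 of these arrays correlated with the mean of the others at r = -0.0493 to 0.0108 as deposited, and all 6 at 0.2031 to 0.4894 after the move. The deposited table does not name the numerator. A positive value was read as more RNA in the bird than in the pool, which is likely but not settled: GPT2, an alanine aminotransferase known to respond to glucocorticoids, then had means of 0.20 in VC and 1.02 in CS, and THRSP, a known thyroid hormone target, had means of -0.24 in CS and 1.41 in CS+T3. TAT, another glucocorticoid target, went the other way between VC (0.12) and CS (-0.25). If the pool were the numerator, all directions given here would turn round.

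Hepatocyte markers moved with corticosterone. Of 11 such genes tested, 6 fell between VC and CS (median difference -1.053, with FGG the other way at 0.28), and their mean per bird ran from -1.22 to -0.37 in CS and from -0.07 to 0.09 in VC. The erythrocyte list ran from 0.02 to 0.39 in CS and from -0.10 to 0.18 in VC, with 1 of 7 genes past the test, SLC4A1 (0.36). The leukocyte list ran from -0.34 to 0.04 in CS and from -0.15 to 0.14 in VC, with 2 of 11 lower, BTK (-0.71) and CYBB (-0.45). Its median difference was -0.137, with LCP1 the other way at 0.27. In the bile duct list 1 of 3 genes fell (TM4SF4, -1.30), while the median was 0.083 and the highest difference 0.15 (KRT7). None of the tested stellate cell (7), endothelial (5) or muscle (2) genes passed. Over all features, 4.07% passed in this comparison. The part of these shifts in the differences of ubiquitin and proteasome genes was not tested, and in whole liver fewer cells of a type and less RNA per cell cannot be told apart.

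Corticosterone alone was examined by setting CS beside VC. Most ubiquitin and proteasome genes showed no difference past the test, and those that passed ran in both directions. By limma with Benjamini-Hochberg adjustment over all features (threshold 0.05), 3 of the 122 genes rose (RNF152, RNF126 and USP14) and 4 fell (CUL2, PSME3, USP24 and PSMA3). These 7 genes are 5.74% of those tested, beside 4.07% of all 9244 features (0.984% higher and 3.08% lower), a share near the background and so no result about the system as a whole. An unadjusted p under 0.05 was reached by 24 of the 122 genes and by 19.6% of all features. The median difference of the 122 genes was 0.023, beside 0.034 over all features, and 76 of the 122 lay within 0.2 of no change. The share of all features within 0.2 was not counted.

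Proteasome genes and ligases differed little in their medians between CS and VC. Over all features the median was 0.034 and 4.07% passed the test. Among 28 proteasome genes tested the median was 0.003, with 0 higher and 2 lower (7.14%). Among 60 ligases (RNF, TRIM, F-box and cullin) it was 0.04, with 2 higher and 1 lower (5.0%). The RNF family had the highest median of the larger families, 0.135 over 27 genes, of which 19 were positive and 2 (7.41%) passed the test. The share of positive values over all features was not counted, so the 19 are no result about the family. Medians for T3 against VC were -0.018 for the proteasome and -0.008 for the ligases, and for CS+T3 against VC they were -0.048 and 0.012.

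**Figure D1:**
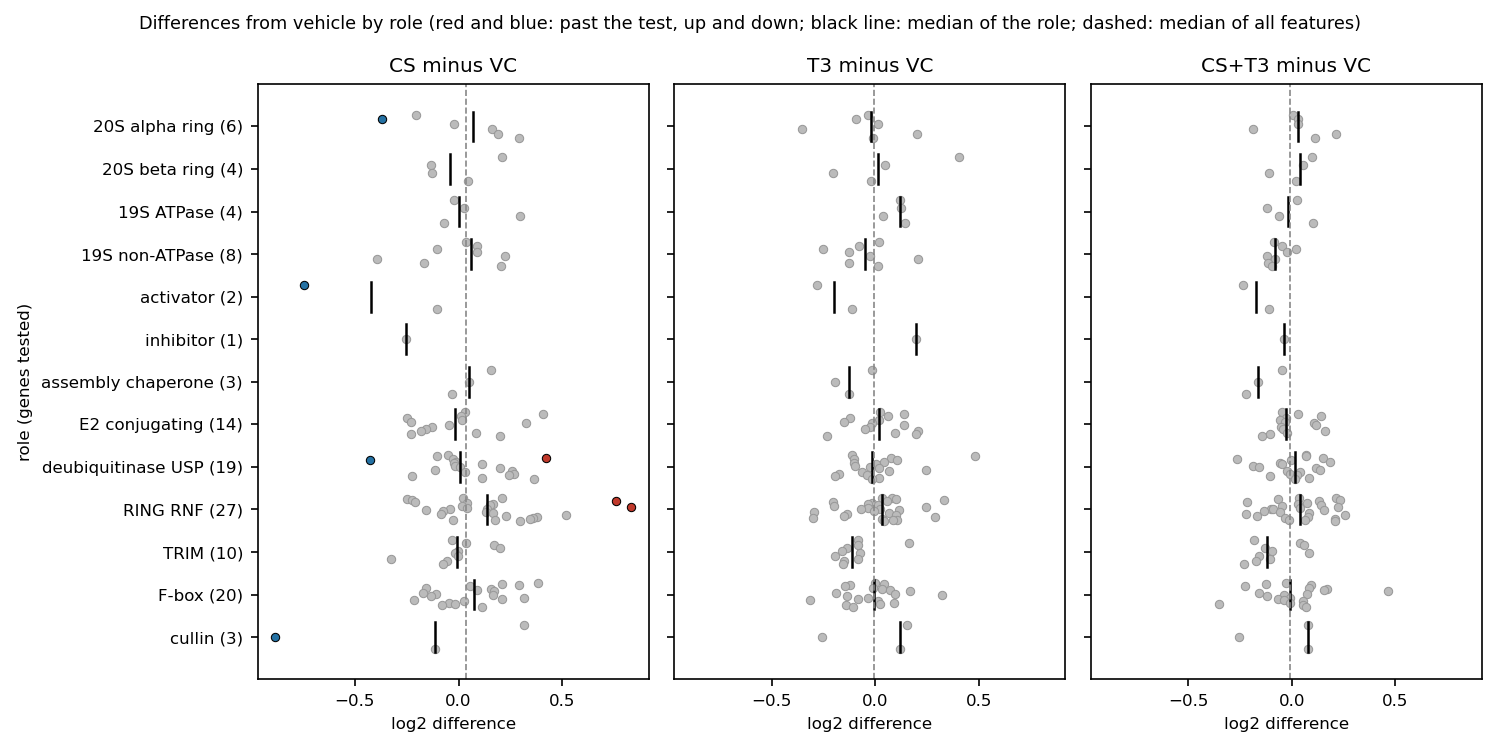
Each point is 1 gene's log2 difference from VC in CS, T3 or CS+T3 (horizontal axis), set out by role (vertical axis, with the number of genes tested); black lines are the medians of the roles, the dashed line is the median of all features, and coloured points passed the test. The 7 coloured points are all in the CS panel, and the RNF median there lies at 0.135, beside 0.034 over all features.

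The core of the proteasome is built of alpha rings, which gate the barrel, and beta rings, which hold its cutting sites. Of the 6 alpha ring genes tested, 1 passed the test between CS and VC (16.7%, beside 4.07% of all features). So few genes give no result about the ring. PSMA3, an alpha ring subunit, had values of 0.16, 0.03, 0.03 and 0.02 in 4 VC birds and -0.21, -0.28, -0.21 and -0.54 in 4 CS birds. All 4 CS birds lay below all 4 VC birds, and the other 2 arrays of each group had no value. Its difference was -0.37 (SE 0.10, adjusted p = 0.0482). That mean joins spots with different gaps: the first spot had means of 0.13 (4 birds) in VC and -0.27 (2 birds) in CS, the second -0.10 (2 birds) and -0.30 (4 birds). With each spot centred on its own median before averaging, an alternative added after the data were seen, the difference was -0.23 (adjusted p = 0.212), and the call held in 8 of 34 alternative settings. The other alpha ring genes ran up to 0.29 (PSMA7), where CS birds spread from -0.17 to 1.61. None of the 4 beta ring genes passed, and their differences lay between -0.13 (PSMB4) and 0.21 (PSMB2).

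The regulatory particle has ATPases that unfold the substrate and non-ATPase subunits that bind and strip ubiquitin. Genes were placed here by symbol alone (PSMC and PSMD). None of the 12 tested passed between CS and VC (limma), beside 4.07% of all features. An unadjusted p under 0.05 was found for 4, beside 19.6% of all features: PSMC5 (0.30), PSMD14 (0.22), PSMD6 (0.21) and PSMD2 (-0.40). PSMD14, the protease that cuts ubiquitin chains off at the lid, had a lowest value of -0.06, a median of 0.07 and a highest of 0.22 in VC, and 0.18, 0.30 and 0.49 in CS. The groups overlapped at their edges, and its 2 spots differed in sign (-0.10 and 0.49). PSMD6, a lid subunit, ran from -0.14 to -0.04 in VC (median -0.10, 6 birds) and from 0.02 to 0.18 in CS (median 0.12, 5 birds), without overlap, but its difference of 0.21 (SE 0.08) had an adjusted p of 0.181.

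PSME3 encodes an activator that in mammals caps the core in the nucleus and opens it without ubiquitin. Its single spot read 0.18, 0.20, 0.13, 0.10 and -0.09 in 5 VC birds and -0.48, -0.58, -0.72, -0.30 and -1.13 in 5 CS birds. Every CS bird lay below every VC bird. In 5 T3 birds it read -0.13, 0.06, -0.07, -0.38 and -0.37, and in the 5 CS+T3 birds -0.15, -0.03, -0.29, 0.01 and -0.18. The T3 birds overlapped both VC and CS, and the CS+T3 birds overlapped VC but not CS. Relative to VC, PSME3 fell by 0.75 in CS (SE 0.13, adjusted p = 0.00229 in limma), a ratio of 0.597. It passed in all 36 alternative settings run, with differences of -0.83 to -0.61. Many of these settings, such as those without an array of T3 or CS+T3, leave its CS and VC values as they are. PSME4, the other activator, differed by -0.10, PSMF1, a protein that inhibits the core, by -0.25, and the 3 assembly chaperones PSMG1 to PSMG3 by -0.03 to 0.16, none past the test.

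**Figure D2:**
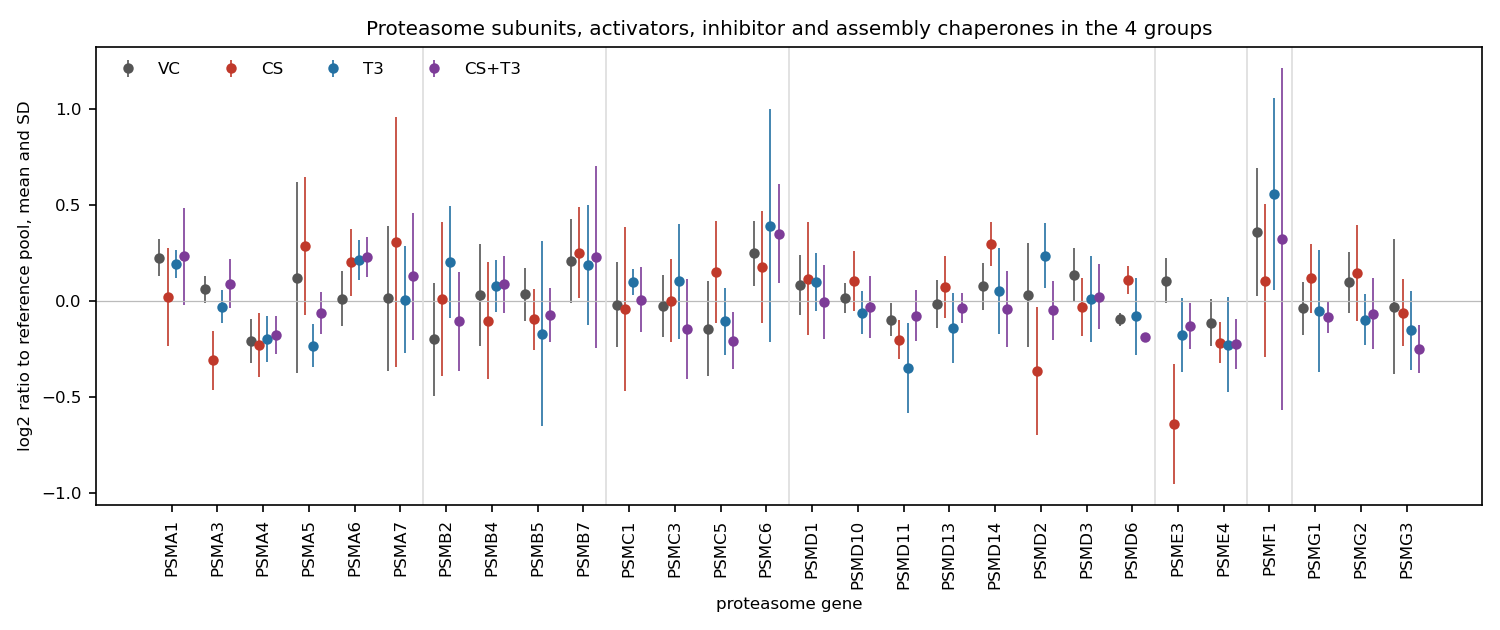
Mean log2 ratio to the reference pool (vertical axis; bars are the SD over birds) of the 28 tested proteasome genes (horizontal axis) in VC, CS, T3 and CS+T3, with vertical lines between roles. PSME3 has the lowest CS mean (-0.64), and most subunits have overlapping bars in all 4 groups.

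Conjugating enzymes carry the activated ubiquitin to a ligase. None of the 14 tested passed between CS and VC, beside 4.07% of all features. An unadjusted p under 0.05 (limma) was found for 3, beside 19.6% of all features. UBE2D2, an E2 used by many ligases, had the highest difference (0.41, SE 0.16, adjusted p = 0.156), with VC birds from -0.08 to 0.35 and 5 CS birds from 0.19 to 0.81. UBE2E3 had the lowest (-0.25), and the median of the 14 was -0.017.

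Among 19 ubiquitin-specific proteases, 1 rose and 1 fell with corticosterone alone (10.5%, beside 4.07% of all features). So few genes give no result about the family. USP14, a deubiquitinase that in mammals sits on the regulatory particle and trims ubiquitin from bound substrates, had a lowest value of -0.58, a median of -0.03 and a highest of 0.29 in VC, and 0.09, 0.35 and 0.68 in CS. Overlap was limited to the upper VC and lower CS birds. The difference was 0.42 (SE 0.12, adjusted p = 0.0498), and its 4 spots taken singly ran from -0.07 to 0.70, so that 1 of them had the opposite sign. It passed in 8 of 36 alternative settings.

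USP24, a large deubiquitinase, read -0.24 at the lowest, -0.05 at the median and 0.01 at the highest in VC, and -0.35, -0.42, -0.69, -0.17 and -0.82 in 5 CS birds. Only the lowest VC bird overlapped the highest CS bird. USP24 fell by 0.43 (SE 0.11, adjusted p = 0.0325). It rests on 1 spot, the other being blank on every array, and the call was lost without VC replicate 1, 3, 4 or 5 or CS replicate 4 or 6. It held in 23 of 35 alternative settings, with differences of -0.51 to -0.28 and adjusted p up to 0.319.

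RING ligases of the RNF family bring the loaded E2 and the substrate together. RNF126, which in human cells marks misplaced membrane proteins for destruction, had a lowest value of -0.21, a median of 0.11 and a highest of 0.45 in VC, and 0.68, 0.86 and 1.09 in CS. All 6 CS birds lay above all 6 VC birds. The difference was 0.76 (SE 0.15, adjusted p = 0.00508), a ratio of 1.70, on a single spot. It passed in 35 of 36 alternative settings, with differences of 0.57 to 0.86, and not with the values as deposited (0.57, adjusted p = 0.104).

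RNF152, a ligase of the lysosomal membrane in mammals, had a lowest value of -0.31, a median of 0.12 and a highest of 0.52 in VC, and 0.51, 0.89 and 1.65 in CS. In these means the lowest CS bird lay just below the highest VC bird. RNF152 rose by 0.83 (SE 0.21, adjusted p = 0.0256). The CS values came from 1 spot alone, since the other was blank on all CS arrays. On that spot VC replicate 6 read 0.97, above 4 of the 6 CS birds, and the difference was 0.74 (SE 0.24), which did not pass the test after adjustment. The call held in 25 of 36 alternative settings and was lost, among others, without VC replicate 1, 4 or 5 or CS replicate 4 or 6. With RNF126 and RNF152, 5 of the 27 RNF genes had an unadjusted p under 0.05 (limma), beside 19.6% of all features. The other 3 were RNF214 (0.52), RNF4 (0.34) and RNF114 (-0.25).

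Cullins are the scaffolds of the largest group of ligases, and F-box proteins are the exchangeable parts that pick their substrates. CUL2, the scaffold that in mammals holds the von Hippel-Lindau protein, had a lowest value of -0.20, a median of -0.02 and a highest of 0.32 in VC, and read -0.48, -1.08, -1.32, -0.22 and -1.16 in 5 CS birds. The CS birds lay below the VC birds, with a gap of only 0.02 between the nearest of them. It read -0.32, -0.07, -0.14, -0.56 and -0.03 in 5 T3 birds, and -0.05, -0.47, -0.17, -0.06 and -0.36 in the CS+T3 birds. These groups overlapped both VC and CS. The CS difference from VC was -0.88 (SE 0.17, adjusted p = 0.00378), a ratio of 0.542, on a single spot. It passed in all 36 alternative settings, with differences of -1.04 to -0.63. As for PSME3, many of these settings leave its CS and VC values as they are, and no second spot could check it.

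The other cullins moved less. CUL1, the scaffold of the F-box ligases, differed by 0.32 in CS (SE 0.14, adjusted p = 0.211), 0.15 in T3 and 0.08 in CS+T3, each against VC, and CUL3, the scaffold of the BTB ligases, differed by -0.115 between CS and VC. None of 20 F-box genes passed (median 0.072, -0.21 for FBXO48 to 0.38 for FBXL14). Nor did any of 10 TRIM genes (median -0.01, -0.33 for TRIM59 to 0.20 for TRIM33), beside 4.07% of all features. An unadjusted p under 0.05 (limma) was found for 4 and 1 of them, beside 19.6% of all features. FBXO32 and TRIM63, the atrogin-1 and MuRF1 ligases of muscle wasting, were too sparsely measured to test. FBXO32 had values on 8 arrays, -0.22, -0.12 and -0.04 in 3 VC birds and 0.12 and 0.26 in 2 CS birds, 0.13 in 1 T3 bird and -0.14 and 0.22 in 2 CS+T3 birds, and TRIM63 had 2 values, -0.05 in VC and 0.05 in CS. USP2, a deubiquitinase tied to the circadian clock in mammals, had 7 values and none in CS.

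**Figure D3:**
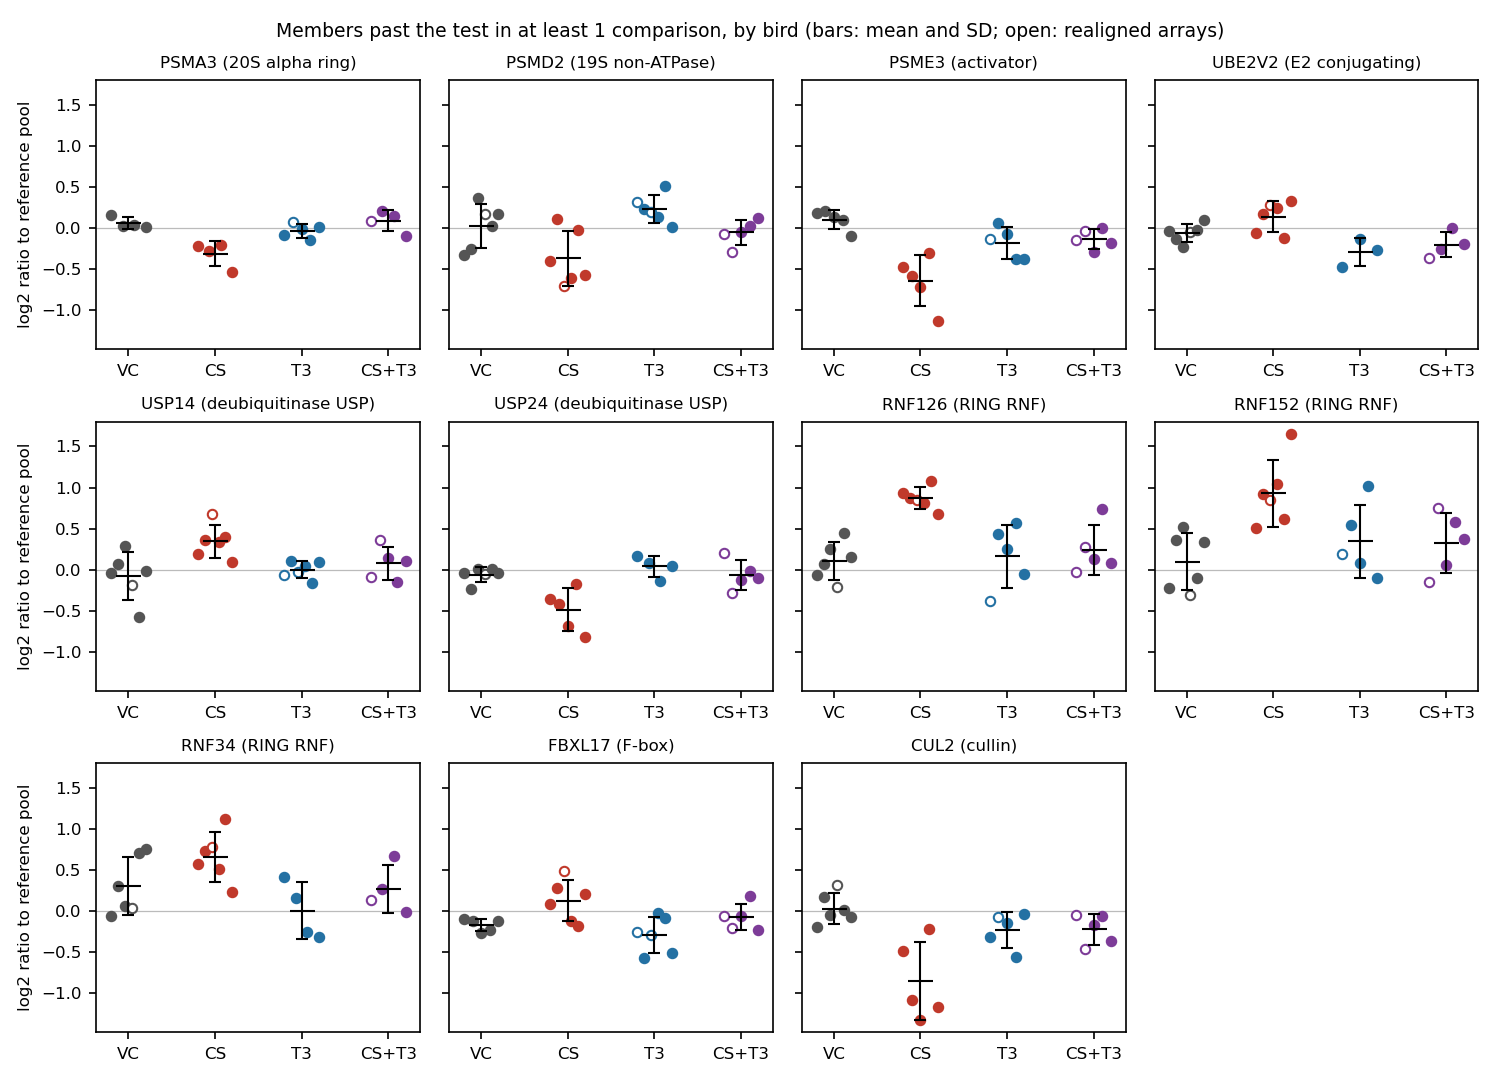
Log2 ratio to the reference pool (vertical axis) in each bird of the 4 groups (horizontal axis) for the 11 genes past the test in at least 1 comparison; bars give the mean and SD, and open points are realigned arrays. The CS birds of PSME3, CUL2 and PSMA3 lie below all VC birds, and those of RNF126 lie above them.

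The count of 7 genes depended on single arrays: it was 3 without VC replicate 1, 4 or 5 or CS replicate 4, and 4 without CS replicate 6. Over all features, where 376 were called, these refits gave 287, 261, 273, 220 and 268, in the same order. Fitting the VC and CS arrays alone gave 4 genes, values as deposited 2, and leaving out the 6 realigned arrays 3. These stand beside 316, 72 and 237 of all features.

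Thyroid hormone alone was examined by T3 against VC. No ubiquitin or proteasome gene passed the test (0 of 122 in limma, beside 0.0% of all features), and 6 had an unadjusted p under 0.05, 4.74% of all features doing so. The 4 with the smallest such p had differences of 0.20 in PSMA6, an alpha ring subunit, -0.25 in PSMD11, a lid subunit, -0.28 in PSME3 and 0.48 in USP12-like, a relative of the deubiquitinase USP12. In the proteasome the differences ran from -0.36 (PSMA5) to 0.40 (PSMB2), and in the ligases from -0.32 (FBXO48) to 0.33 (RNF123). For 3 of these extremes 1 bird stood far from its group. PSMA5 read 0.85 in VC replicate 6 and -0.26 to -0.05 in the other VC birds with values. FBXO48 read -1.40 in T3 replicate 1, a realigned array, and -0.11 to 0.77 in the other T3 birds with values. RNF123 read 2.58 in T3 replicate 2 and -0.695 to 0.23 in the other T3 birds.

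Birds given both hormones were compared with VC next. Again 0 of 122 genes passed (limma), beside 0.0541% of all features, with 5 at an unadjusted p under 0.05, beside 4.47% of all features. The 4 smallest unadjusted p belonged to FBXW2 (-0.35), TRIM8 (-0.23), FBXO25 (0.46) and PSMA6 (0.21). Proteasome genes ran from -0.23 (PSME3) to 0.21 (PSMA6). Of the 122 genes, 105 lay within 0.2 of no change, as did 102 in T3 and 76 in CS against VC. The share of all features within 0.2 was not counted, so these counts are no result about the system. An unadjusted p under 0.05 (limma) was reached by 4.47%, 4.74% and 19.6% of all features, in the same order.

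The single hormones were then compared directly, CS minus T3, with the same CS arrays as before. Here 4 of 122 genes were higher in CS (RNF126, RNF34, UBE2V2 and FBXL17) and 4 lower (CUL2, PSMD2, USP24 and PSME3). These 8 are 6.56% of the genes, beside 7.59% of all features (2.51% higher and 5.08% lower), and 33 genes and 24.8% of all features had an unadjusted p under 0.05. Median differences were 0.014 in the proteasome, 0.09 in the ligases and 0.051 over all features. Proteasome genes ran from -0.60 (PSMD2) to 0.52 (PSMA5), and CUL1 differed by 0.165.

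Some marker genes moved in the same comparison, in which 7.59% of all features passed the test. Of the 11 hepatocyte genes 7 had lower values with CS and 1, FGG, had a higher one (0.64), with a median of -1.084. Of the leukocyte genes 3 of 11 were lower (list median -0.086). In the muscle list ACTA1 was lower (-1.02), with MYL1 the other way at 0.10. In the erythrocyte list 2 of 7 were higher (list median 0.122), with HBA1 the other way at -0.28. TM4SF4 of the bile duct list was lower (-1.43), while the median of that list was 0.037 and EPCAM was at 0.21. The part of these shifts in the differences below was not tested.

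PSMD2, a base subunit of the regulatory particle to which ubiquitin carriers dock, had a lowest value of -0.70, a median of -0.49 and a highest of 0.11 in CS, and 0.02, 0.21 and 0.52 in T3. Of the 6 CS birds, 5 lay below all T3 birds. The CS+T3 birds read -0.07, -0.29, -0.05, 0.03 and 0.13. PSMD2 was lower in CS than in T3 by 0.60 on the log2 scale (difference -0.60, SE 0.14, adjusted p = 0.0101), a call kept without any single array. It was lost, among others, without the 6 realigned arrays (-0.52, adjusted p = 0.0942). It held in 33 of 36 alternative settings, and in 10 of the 13 that did not leave out 1 array. Its second spot had means of -0.38 (6 birds) in CS and 0.41 (6 birds) in T3, the third -0.48 (3 birds) and -0.09 (2 birds). The first had 0.06 (1 bird) and 0.0 (2 birds).

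UBE2V2, an E2 relative without the active-site cysteine that pairs with UBE2N to build chains used in DNA repair, had a lowest value of -0.12, a median of 0.21 and a highest of 0.33 in CS, and values of -0.48, -0.13 and -0.27 in only 3 T3 birds. In these means no T3 bird reached a CS bird, but the nearest lay close, at -0.134 in T3 and -0.117 in CS. On its second spot T3 replicate 5 read -0.16. CS replicates 1 and 5 lay below that (-0.39 and -0.22), and CS replicates 4 and 6 above it (0.17 and 0.05). The difference was 0.43 (SE 0.12, adjusted p = 0.0312 in limma), and the call was lost without CS replicate 3, 4 or 6. Without T3 replicate 2, 5 or 6 the gene had too few T3 values to be tested. The call held in 20 of 31 alternative settings, and in 3 of the 11 that did not leave out 1 array. Of its spots, the first had means of 0.27 (6 birds) in CS and -0.29 (3 birds) in T3, and the second -0.10 (4 birds) and -0.16 (1 bird).

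RNF34, a ligase that in human cells targets caspases, had a lowest value of 0.23, a median of 0.65 and a highest of 1.13 in CS, and read 0.42, 0.16, -0.25 and -0.31 in 4 T3 birds. The highest T3 bird overlapped the lowest CS bird. Its difference was 0.66 (SE 0.20, adjusted p = 0.0457), on a single fitted spot, and it passed in 15 of 35 alternative settings. FBXL17, an F-box protein that in human cells clears wrongly paired BTB proteins, had a lowest value of -0.18, a median of 0.15 and a highest of 0.48 in CS and -0.58, -0.27 and -0.02 in T3. The groups overlapped. Its difference was 0.41 (SE 0.11, adjusted p = 0.0296), on a single spot, and it was lost without CS replicate 2, 3 or 6 or T3 replicate 2, 3 or 6. It held in 23 of 36 alternative settings.

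The genes of the first comparison that also passed here had these values. RNF126 read -0.38, 0.44, 0.25, 0.56 and -0.05 in 5 T3 birds, all below every CS bird, with a difference of 0.71 (SE 0.16, adjusted p = 0.00814). USP24 read 0.17, 0.09, -0.14 and 0.04 in 4 T3 birds, all above every CS bird, with a difference of -0.53 (SE 0.12, adjusted p = 0.0123). CUL2 differed by -0.63 (SE 0.17, adjusted p = 0.0297) and PSME3 by -0.46 (SE 0.13, adjusted p = 0.0323), each with overlapping groups. The CUL2 call was lost without CS replicate 2, 4 or 6 or T3 replicate 3, 4 or 6, and the PSME3 call without CS replicate 4 or 6 or T3 replicate 1, 2 or 4. Of the 13 settings that did not leave out 1 array, CUL2 passed in 6 and PSME3 in 7. The count of 8 was 4 or 5 without CS replicate 2, 3, 4 or 6 or T3 replicate 2, 3 or 6, and 13 without T3 replicate 5. Over all features the 702 called became 407 to 618 in the refits with 4 or 5 genes and 1062 without T3 replicate 5.

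CS+T3 against CS asks what adding thyroid hormone to corticosterone did, again on the same CS arrays. Of 122 genes, 2 were higher in CS+T3 (PSME3 and PSMA3) and 1 lower (RNF126), 2.46% beside 2.63% of all features (2.24% higher and 0.389% lower). An unadjusted p under 0.05 was found for 23 genes and for 21.1% of all features. PSME3 was higher by 0.51 (SE 0.13, adjusted p = 0.0363), with the lowest CS+T3 bird 0.01 above the highest CS bird. PSMA3 read 0.09, 0.21, 0.15 and -0.09 in 4 CS+T3 birds, all above the CS birds, a difference of 0.40 (SE 0.10, adjusted p = 0.0435) that became 0.29 (adjusted p = 0.108) with its spots centred. RNF126 read -0.03, 0.27, 0.13, 0.74 and 0.08, and 4 of these 5 birds lay below every CS bird, a difference of -0.63 (SE 0.16, adjusted p = 0.031). The fourth gene by unadjusted p was CUL2 (0.63, adjusted p = 0.0529). Proteasome genes ran from -0.36 (PSMC5) to 0.51 (PSME3), and CUL1 differed by -0.24. Some marker genes moved here as well. In the hepatocyte list 2 of 11 genes were higher in CS+T3 (median 0.656, with FGG the other way at -0.02). Of the leukocyte genes 1 of 11 was higher (BTK, 0.72), while the list median was 0.034 and LCP1 was at -0.34. TM4SF4 of the bile duct list was higher, while the median of that list was 0.029 and EPCAM was at -0.2. In the erythrocyte list SLC4A1 was lower (-0.40, list median -0.157). The part of these shifts in the differences of ubiquitin and proteasome genes was not tested. None of the 3 calls held with values as deposited or without the realigned arrays, and no gene passed without CS replicate 4 or CS+T3 replicate 1, while 1 passed without CS replicate 3 or 6 or CS+T3 replicate 3, 4 or 5, and 5 or 6 without CS replicate 5 or T3 replicate 1 or 5. Over all features the 243 called became 5 as deposited and 26 without the realigned arrays. They became 104 and 103 in the refits where no gene passed, 124 to 175 in those with 1 gene, and 323 to 667 in those with 5 or 6.

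CS+T3 against T3 gave 0 of 122 genes (limma), beside 0.0433% of all features, and 2 at an unadjusted p under 0.05, FBXW2 (-0.38) and PSMD11 (0.27), beside 4.21% of all features. The next by unadjusted p were PSMD2 (-0.28) and USP12-like (-0.41). Proteasome genes ran from -0.31 (PSMB2) to 0.27 (PSMD11), and CUL1 differed by -0.075. Whether T3 acted differently with and without corticosterone was tested as an interaction: 0 of 122 passed (limma), beside 0.0865% of all features, with 14 at an unadjusted p under 0.05, beside 9.78% of all features. PSME3 had an interaction of 0.79 (SE 0.18, adjusted p = 0.13), CUL2 of 0.89 (SE 0.24, adjusted p = 0.22), PSMA3 of 0.49 (SE 0.14, adjusted p = 0.26) and RNF126 of -0.69 (SE 0.22, adjusted p = 0.324). Proteasome genes ran from -0.52 (PSMB2) to 0.79 (PSME3), and CUL1 had -0.39. The count was 2 without CS replicate 5, a refit that gave 36 over all features, beside 8 with all arrays.

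**Figure D4:**
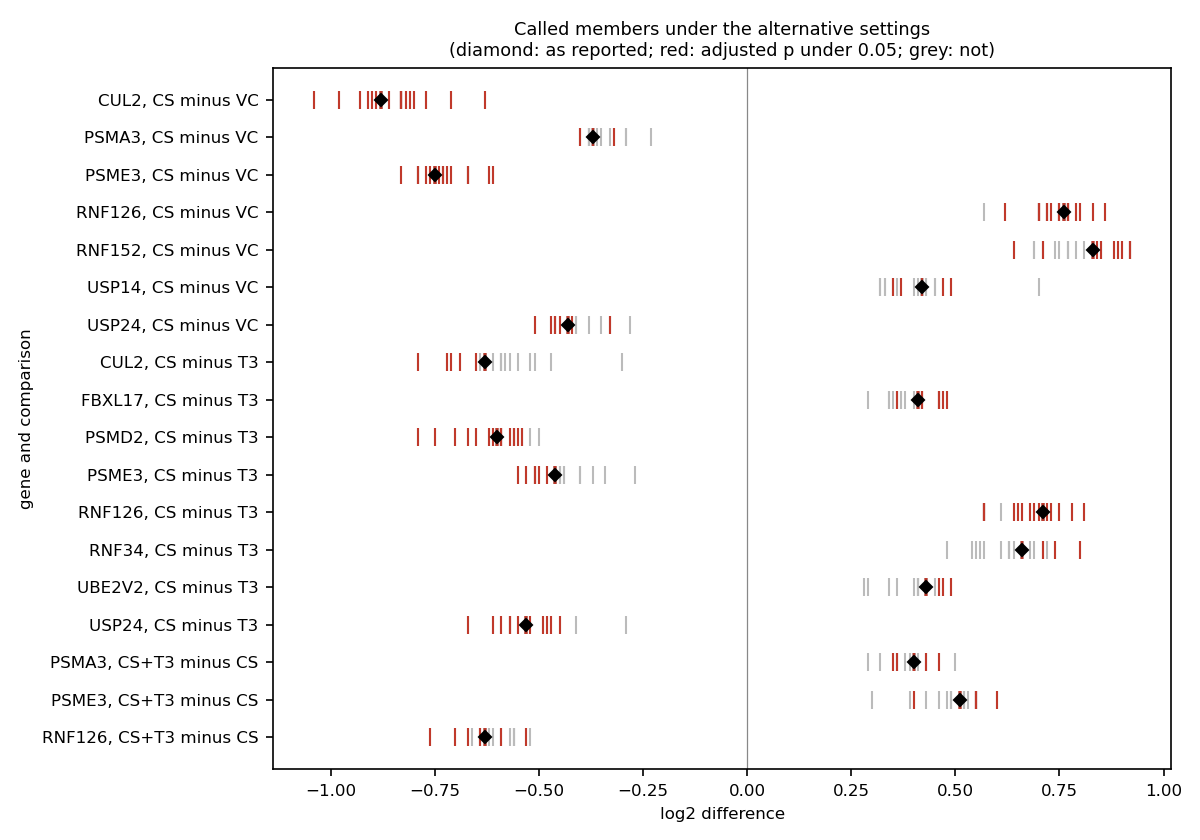
Log2 difference (horizontal axis) of each gene that passed in a comparison (vertical axis), as reported (diamond) and under each alternative setting (ticks, red where the adjusted p was under 0.05, with only the best-filled spot of a gene in the single-spot setting). All ticks shown lie on the same side of 0 as their diamond, and those of PSME3 and CUL2 for CS minus VC are all red. Settings that leave out an array of another group do not change a difference.

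Other genes of the ubiquitin system, on a list of 101 genes of which 75 were tested, were looked at beside these families. Between CS and VC 1 rose and 4 fell, and the median difference of the list was -0.001. These 5 of 75 genes stand beside 4.07% of all features called, the 8 of 75 in the next comparison beside 7.59% and the 3 of 75 in the last beside 2.63%. CBLB, a ligase that damps receptor signalling in immune cells and muscle of mammals, rose by 1.48 (SE 0.27, adjusted p = 0.00329). ARIH1, a ligase that works together with cullins, fell by 1.02 (SE 0.20), RCHY1, a RING ligase that acts on p53, by 0.94 (SE 0.26), KLHL20, a substrate adaptor of CUL3, by 0.69 (SE 0.19), and FAF1, a partner of the segregase VCP, by 0.55 (SE 0.13). Between CS and T3, 5 of the list were higher (CBLB 1.31, PRPF19 0.57, HACE1 0.45, SIAH1 0.43 and ATG5 0.39) and 3 lower (RCHY1 -1.26, ARIH1 -0.98 and FAF1 -0.50). Between CS+T3 and CS, RCHY1 (1.10) and FAF1 (0.67) were higher and CBLB lower (-1.23). None passed in the other 4 comparisons.

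Variation from bird to bird was compared between genes as a description. After group means were removed, the median correlation over 375 pairs of proteasome genes was -0.022 across 15 or more birds, as it was over 1728 pairs of ligases, and it was -0.006 over 1650 pairs of a proteasome gene with a ligase. The arrays, and for some pairs the realignment, are shared by all these values. Spots of the same gene also varied little together. Over 61 pairs of spots of these genes with 10 or more arrays the median r was -0.077, against 0.059 over 3351 pairs of all named genes and 0.717 over the 89 pairs in which both spots had an SD of at least 0.5. In these 61 pairs the spread across birds was thus mostly not shared between spots of a gene, and genes with 1 spot could not be checked in this way.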

How the data were processed

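The deposited series table holds 1 log2 ratio for each spot and array. The log base (taken as 2 from the range), numerator, background correction, normalization and spot filter are not given in the sources used here. Per the labels, the birds' RNA carried Alexa Fluor 555 and the pool Alexa Fluor 647, with no dye swap. No slide or scan batch is named in the labels, so whether there was one is not known. Birds were drawn from 72 housed 3 to a pen in 2 rooms, and the pen of each bird is not given. The number of arrays limits the precision.

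Spots were named from the platform annotation: 10601 had 1 symbol, 0 several and 8599 none. Of the 267 spots of the genes described, 264 matched RefSeq by Entrez ID, and no symbol differed. Each array was compared with the mean of the others, and 6 were realigned by a search for lags of up to 40 spots that used no group. A part was dropped where r was under 0.1, and so was each block in which the lag changed. Moved values that came to lie on a blank spot of the array were lost as well. Tested on the 17 other arrays after deleting spots, it placed at least 96.9% of the spots correctly. Those arrays correlated with the mean of the others at r = 0.3157 to 0.6054. The realigned arrays reached as little as 0.2031 (T3 replicate 1), and the share placed correctly on them was not measured. On VC replicate 1, which was not realigned, the search also placed 286 spots in blocks 47 and 48 at lag 20 (r = 0.16). A further 211 spots in block 48 were placed at lag 37 (r = 0.304). Their values stayed as deposited, since an array was moved only for a shifted part of at least 1000 spots.

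Spots of a gene were averaged. Features with at least 3 values in every group were fitted with limma 3.58.1 (R 4.3.3) on group means over all 23 arrays, and p-values were adjusted by Benjamini-Hochberg over all features of a comparison. Missing values were left out of the fit, not imputed. In simulated data with the CS against VC design, true log2 changes of 0.5 were found in 44% and those of 1 in 89% of cases. Only a small share of the 9244 features was changed there, and the noise was normal and independent between features. The real data may differ in both, so these percentages do not give the power for the genes described. Genes with values in the text are all those past the test, the 4 smallest unadjusted p where fewer than 4 passed, FBXO32, TRIM63, USP2 and CUL1, the highest and lowest proteasome gene of each comparison, and genes past the test on the list of other ubiquitin system genes. Other genes given as examples or extremes of a family were added after their values were seen. The genes and lists were chosen with earlier results of these data known. Alternatives were the deposited order, leaving arrays out, array weights, a trended robust variance, quantile normalization, block medians, spot centring, other minimums, fewer groups, the best-filled spot of each gene and the replicate number as a block. Leaving out an array of another group, or one where the gene is blank, changes only the spread and the adjustment. For a gene with 1 spot, centring and the best-filled spot leave its differences as they are. The number of settings passed is thus no measure of independent checks.

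Replicate numbers showed no pairing of the samples by correlation. The median for same-numbered samples was -0.027 over 33 pairs, 9 of them over 0.1 and the highest 0.324. For samples of different number it was 0.007 over 165 pairs, 46 of them over 0.1 and the highest 0.391.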

Additional observations from a re-analysis of the deposited data

Results flagged for a closer look

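In 5 of 71 groups of 4 to 6 birds examined over the 18 genes named by the rule (7.04%), 1 bird stood far from the others by Dixon's test. Chance flags about 1 in 20 groups. CUL1 in T3 replicate 1 read -0.56, and the other T3 birds lay between -0.10 and 0.05. PSMA3 in VC replicate 1 read 0.16, and the other 3 between 0.02 and 0.03. These are means of spots with different gaps. On its first spot VC replicates 1, 2, 3 and 6 read 0.16, 0.14, 0.19 and 0.02, so replicate 1 did not stand apart there. Its second spot was blank in VC replicate 1 and read -0.08 and -0.12 in VC replicates 2 and 3. PSMA6 in T3 replicate 2 read 0.42, against 0.13 to 0.21 in the others, and in CS+T3 replicate 2 it read 0.04, against 0.25 to 0.30. USP24 in VC replicate 2 read -0.24, against -0.06 to 0.01. Of the 5 values, 2 came from realigned arrays.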

How the results depend on the processing

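Counts of genes past the test moved with the setting. Signs were followed only for genes past the test and, where fewer than 4 passed, the 4 with the smallest unadjusted p. The differences of these genes kept their sign in all but 2 cases, both of USP12-like, a gene past no test. They were -0.05 between T3 and VC with the best-filled spot of each gene, and 0.01 between CS+T3 and T3 without the 6 realigned arrays. Other differences given in the text, such as the extremes of a family, were not followed through the settings. Between CS and VC, 7 genes became 2 with values as deposited, 3 without the 4 most shifted arrays, without all 6 realigned arrays or with quantile normalization, and 4 with spots centred, with VC and CS arrays alone or with the best-filled spot of each gene. That setting takes 0.70 for USP14 between CS and VC, while another of its spots had -0.07. Leaving out 1 array gave 3 to 7. Over all features the 376 called became 72 as deposited, 188 without the 4 arrays, 237 without the 6 and 140 with quantile normalization. They became 372 with spots centred, 316 with VC and CS arrays alone and 220 to 597 without 1 array. With spots taken singly, 468 of 11237 passed. Between CS and T3, 8 genes became 2 with values as deposited, without the 4 or the 6 arrays or with these groups alone, 4 with array weights, 5 with at least 5 values in every group, 0 with quantile normalization and 17 with block medians subtracted. Leaving out 1 array gave 4 to 13. Over all features the 702 called became 233 as deposited, 319 without the 4 arrays, 266 without the 6 and 268 with these groups alone. They became 535 with array weights, 222 with quantile normalization, 1088 with block medians subtracted and 407 to 1090 without 1 array. With at least 5 values in every group, 441 of 4739 passed. Between CS+T3 and CS, 3 genes became 0 with values as deposited, without the 4 or the 6 arrays or with quantile normalization, 1 with these groups alone, 6 with array weights and 11 with block medians subtracted (6 higher and 5 lower, against 2 and 1). Leaving out 1 array gave 0 to 6. Over all features the 243 called became 5 as deposited, 66 without the 4 arrays, 26 without the 6 and 91 with quantile normalization. They became 158 with these groups alone, 488 with array weights, 668 with block medians subtracted and 103 to 667 without 1 array. The interaction gave 2 genes with array weights and 0 to 2 without 1 array. Over all features it gave 8 as reported, 36 with array weights and 0 to 36 without 1 array. The other comparisons gave 0 genes in each setting run. The cause of these shifts was not tested, though settings with fewer arrays or groups also have fewer values.

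With the replicate number as a block, 4 genes passed between CS and VC, 4 between CS and T3 and 0 between CS+T3 and CS. Over all features 236, 397 and 71 passed, in the same order. The numbers showed no pairing of the samples by correlation, and 2 of 23 samples correlated best with their own number.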
